A study of Homo sapiens with 18 samples.

Results

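The 10 core circadian clock genes PER1, PER2, PER3, CRY1, CRY2, ARNTL, CLOCK, NR1D1, NR1D2 and DBP were followed by RNA-seq in IMR90 cells, human lung fibroblasts, through an oxidant challenge with or without prior exposure to hyaluronan (HA). The genes were taken by symbol, as genes that make up the clock. They are 10 of the 56269 genes in the table, and all 10 were among the 13686 genes tested, those with a mean of at least 10 normalized counts. A normalized count is the number of reads assigned to a gene divided by the size factor of its library.

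Cells grown with 15% FBS received PBS for 6 h, or 20 µg/ml of HA from naked mole-rat skin fibroblasts, either cNSF-HA, the heated control preparation that kept its polymer length, or fNSF-HA, partially fragmented by hyaluronidase. The groups PBS, cNSF-HA and fNSF-HA were collected at that point. In the groups PBS + tBHP, cNSF-HA + tBHP and fNSF-HA + tBHP, HA was removed, the cells received 200 µM tert-butyl hydroperoxide (tBHP), a peroxide that places cells under oxidative stress, for 1 h, and they were collected 6 h after tBHP was added. Each of the 6 groups had 3 replicate libraries, 18 in all. Cells with tBHP were therefore 12 h and cells without it 6 h from the start, so the peroxide, the change of medium and the additional 6 h in culture cannot be told apart in any comparison of cells with and without it. For clock genes this matters in particular, because their transcripts change with time in culture, and no step that synchronised the cells and no time series are described.

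In mammalian cells the clock is a feedback loop of transcription. ARNTL (also called BMAL1) pairs with CLOCK on E-box sequences and switches on the PER and CRY genes, whose proteins return to the nucleus and inhibit ARNTL and CLOCK. The same pair also switches on NR1D1 and NR1D2, which encode the repressors REV-ERB alpha and REV-ERB beta. These compete with the activating ROR receptors at elements with the core TAGGTCA and so keep ARNTL in check. DBP is an output factor that acts at D-boxes, where it is opposed by the repressor NFIL3. Fibroblasts hold such clocks of their own, which serum and glucocorticoids can reset.

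The promoter windows in RefSeq (GRCh38.p14, 250 bases before to 50 after a transcription start) were matched for 10 of 10 genes, ARNTL under the name BMAL1, with 15 windows in all. They were searched on both strands for the E-box CACGTG, the E-box-prime CACGTT, the D-boxes TTATGTAA and TTACGTAA, the ROR and REV-ERB core TAGGTCA and the cAMP response element TGACGTCA. The sites found are shown because they are the sequences through which these genes are known to act on each other. Each is printed 5′ to 3′ on the strand of the gene, with the site in capitals, and AACGTG and TTACATAA are the reverse complements of an E-box-prime and a D-box.
PER1 E-box, chr17:8152561-8152588, minus strand: gcacccaggtcCACGTGcgcccgtgtgt
PER2 E-box-prime, chr2:238288791-238288818, minus strand: gcgcgcgcggtCACGTTttccactatgt
PER2 D-box, chr2:238288595-238288624, minus strand: cccgctgcggcTTACGTAAccgccgccggc
PER3 D-box, chr1:7784103-7784132, plus strand: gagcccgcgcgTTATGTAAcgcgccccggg
CRY1 E-box-prime, chr12:107093622-107093649, minus strand: cacacttcagaAACGTGaggtgccggtg
CRY2 E-box-prime, chr11:45847276-45847303, plus strand: cacatggtaggAACGTGagggggcgggc
CRY2 ROR core, chr11:45847399-45847427, plus strand: ttgcggcgtcaTAGGTCActgggcgggct
ARNTL ROR core, chr11:13277809-13277837, plus strand: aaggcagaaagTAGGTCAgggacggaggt
CLOCK E-box-prime, chr4:55546103-55546130, minus strand: caccactcgggCACGTTtggagcagcgc
NR1D1 E-box-prime, chr17:40100741-40100768, minus strand: cgcaagagctcAACGTGccggctgttgg
NR1D2 D-box, chr3:23945916-23945945, plus strand: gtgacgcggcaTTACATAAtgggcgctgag
NR1D2 E-box, chr3:23945955-23945982, plus strand: gcgggcggggaCACGTGaggccgctcgg
NR1D2 E-box, chr3:23946005-23946032, plus strand: ggccgcagggaCACGTGggggcgggggc
The DBP window held none of the 6 motifs, and none of the 15 windows held a cAMP response element. NR1D2 had 3 sites in 1 window, and no other gene of the 10 had more than 2 in all. Among all 35116 windows of that length, 7.26% held an E-box, 5.34% an E-box-prime, 0.886% the D-box TTATGTAA, 0.125% the D-box TTACGTAA, 1.85% the ROR core and 1.85% a cAMP response element. These are matches of letters only, and no measurement of binding was made here.

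Libraries held 20261103 to 26287660 reads on genes. The 10 fibroblast marker genes all had a mean of 10 or more normalized counts in both arms, and their summed level ran from 594921 to 616446 without tBHP and from 458889 to 722451 with it. In PBS cells 4 of the 10 fell with tBHP, LUM (log2 change -1.33, limma adjusted p = 4.1e-09), FAP (-0.35), COL3A1 (-0.34) and DCN (-0.26), and PDGFRB rose (0.60), beside 26.9% of all genes lower and 24.2% higher. Of 5 leukocyte markers none reached a mean of 10 counts in either arm, and of 5 endothelial markers 1 did without and 2 with tBHP, PECAM1 being at 0 in the libraries without it and CDH5 in those with it. The endothelial sum ran from 1286 to 1459 without and from 713 to 1101 with tBHP. Most of it was TEK, which fell from 1279 to 1314 normalized counts in PBS to between 958 and 1006 in PBS + tBHP (log2 change -0.40, limma adjusted p = 0.00388), while VWF rose from 6.81 ± 2.47 to 18.5 ± 6.01 normalized counts (SD, n = 3; log2 change 1.32, adjusted p = 0.00982). Of 5 epithelial markers 3 reached a mean of 10 counts in both arms, with a sum of 2087 to 2347 without and 1235 to 2189 with tBHP, while CDH1, which defines epithelium, had means of 1.48 and 2.32 and KRT18 fell in PBS cells (log2 change -0.50, adjusted p = 0.000658). The part of such cells in the results was not tested. The tBHP libraries differed by base composition, and 1 stood furthest apart. In fNSF-HA + tBHP replicate 2, genes in the fifth of highest GC content lay 0.63 below their mean over the 9 tBHP libraries (median, log2 scale) and genes in the fifth of lowest GC content 0.43 above it. PBS + tBHP replicate 1 and cNSF-HA + tBHP replicate 3 leaned the other way. Their medians were 0.26 and 0.26 in the fifth of highest and -0.23 and -0.15 in the fifth of lowest GC content. GC content ran among the clock transcripts from 39.6% in CLOCK and 40.6% in NR1D2 to 60.8% in DBP and 62.6% in PER1.

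In cells with tBHP the clock genes moved in both directions. ARNTL and NR1D1 were higher, PER3, CLOCK, NR1D2, CRY1 and PER2 were lower, and PER1 and CRY2 did not pass the test, after each of the 3 pre-incubations. With limma's test across all genes and Benjamini-Hochberg adjusted p under 0.05, 2 of 10 clock genes rose and 5 fell in PBS cells, against 24.2% and 26.9% of all genes tested. In cNSF-HA cells 2 rose and 6 fell, against 24.0% and 26.8% of all genes, and in fNSF-HA cells 2 rose and 6 fell, against 19.2% and 22.7%. ARNTL and NR1D1 rose, and PER2, PER3, CRY1, CLOCK and NR1D2 fell, in all 3 pre-incubations, while 14.6% of all genes rose and 17.9% fell in all 3. The median log2 change of the 10 genes was -0.44, -0.62 and -0.57 in PBS, cNSF-HA and fNSF-HA cells, beside 0.0043, -0.00053 and -0.03 for all genes tested. Log2 changes here are differences of log2(normalized count + 1), with standard errors (SE) from the same fit. In a culture of many cells a lower level can mean fewer cells with the transcript or less of it per cell, and these cannot be told apart.

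**Figure D1:**
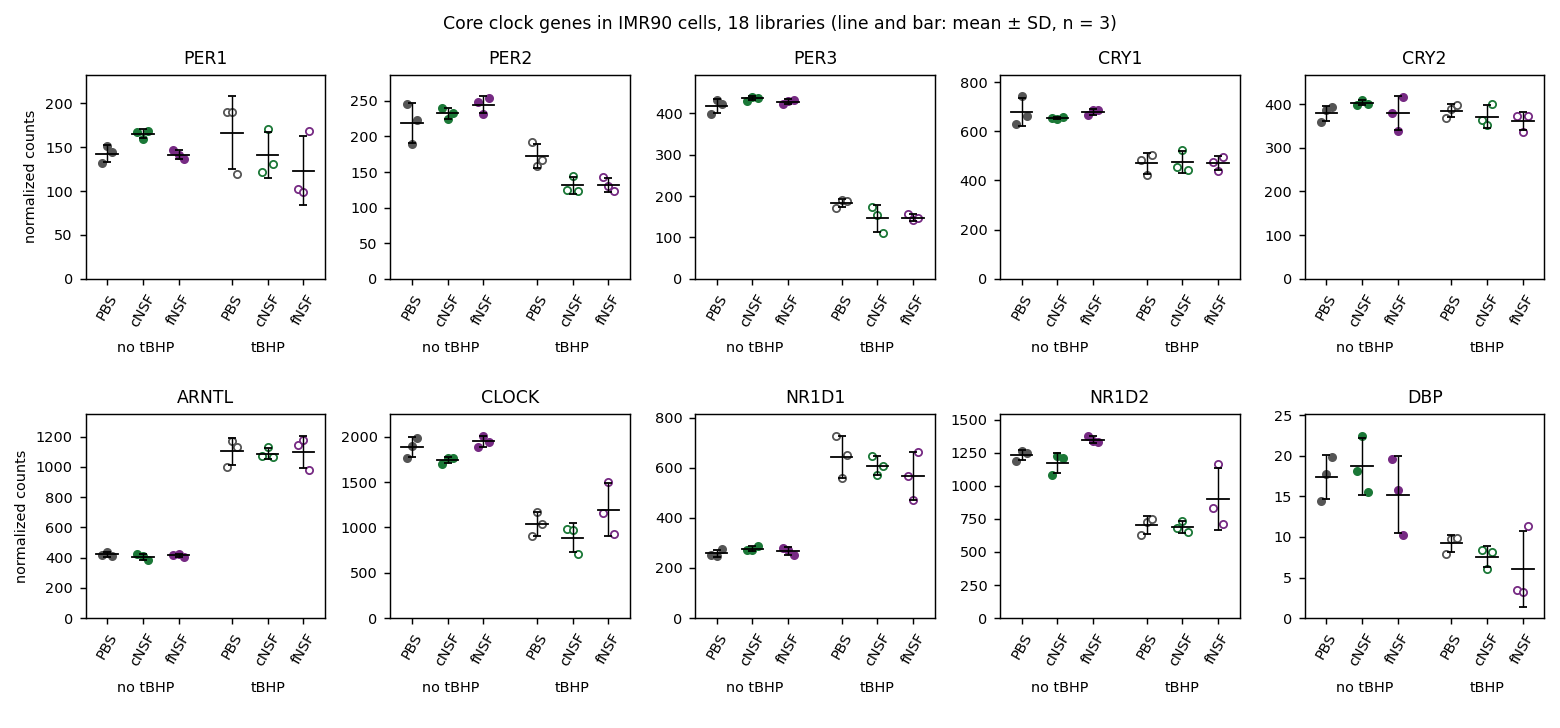
Normalized counts (vertical axis, from 0) of each clock gene in the 18 libraries. Filled points are cells without and open points cells with tBHP, coloured by pre-incubation, and lines and bars give the mean ± SD of 3 libraries. ARNTL ran from 384 to 438 without tBHP and from 977 to 1178 with it, whereas the CRY2 libraries of both kinds lie between 336 and 416.

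ARNTL encodes the activator that the REV-ERB proteins repress. Its normalized counts were 417, 438 and 409 in the PBS libraries and 1001, 1175 and 1134 in PBS + tBHP. In cNSF-HA cells they were 423, 411 and 384 without tBHP and 1071, 1131 and 1064 with it. In fNSF-HA cells they were 417, 425 and 404 without and 1143, 1178 and 977 with tBHP. All 9 libraries with tBHP lay above all 9 without, and the 3 pre-incubations overlapped within each arm. The rise was 2.61-fold in PBS cells (log2 change 1.38, SE 0.08, limma adjusted p = 4.22e-10), and 2.68-fold in cNSF-HA and 2.64-fold in fNSF-HA cells. ARNTL (chr11:13276652-13387266, plus strand, GRCh38) has 2 promoter windows in RefSeq, and the ROR core printed above begins at position 31 of the transcript that starts in the downstream one.

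CLOCK, the partner of ARNTL, went the other way. PBS libraries had 1767, 1904 and 1987 normalized counts and PBS + tBHP libraries 908, 1174 and 1044. The cNSF-HA libraries had 1706, 1764 and 1770 without and 989, 969 and 711 with tBHP. The fNSF-HA libraries had 1892, 2013 and 1944 without and 1161, 1504 and 925 with tBHP. Groups with and without tBHP did not overlap, and the highest tBHP library was fNSF-HA + tBHP replicate 2, the one that stood furthest apart by GC content. The lowest, at 711 and 908, were the libraries that leaned the other way by GC content. The fall in PBS cells was 1.82-fold (log2 change -0.86, SE 0.14, limma adjusted p = 7.88e-05), and the log2 change was -0.99 in cNSF-HA and -0.73 in fNSF-HA cells. CLOCK is the most AT-rich transcript of the 10. When a trend on GC content and length was taken out of each library, an alternative chosen after seeing the data, its log2 changes were smaller, -0.40, -0.48 and -0.43, and all 3 still passed the threshold. The opposite moves of the 2 partners turned their ratio over. Per kb of exon, ARNTL stood at 0.389 times CLOCK in the 9 libraries without tBHP and at 1.87 times in the 9 with it (geometric means), and the log2 ratio ran from -1.47 to -1.21 without and from 0.45 to 1.39 with tBHP.

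NR1D1 (REV-ERB alpha) rose and its paralogue NR1D2 (REV-ERB beta) fell. NR1D1 had 251, 248 and 276 normalized counts in PBS and 725, 557 and 649 in PBS + tBHP, a 2.47-fold rise (log2 change 1.31, SE 0.12, limma adjusted p = 5.82e-08). It had 270, 271 and 288 in cNSF-HA, 646, 569 and 608 in cNSF-HA + tBHP, 281, 273 and 252 in fNSF-HA and 566, 470 and 662 in fNSF-HA + tBHP. The log2 change was 1.13 in cNSF-HA and 1.06 in fNSF-HA cells, and all 9 tBHP libraries lay above all others. NR1D1 (chr17:40092787-40100725, minus strand) shares 263 exon bases, 9.49% of its exon length, with THRA on the opposite strand. The library kit does not keep strand, so reads there cannot be assigned to either gene. THRA, which encodes a thyroid hormone receptor, had a log2 change of 0.08 in PBS cells (limma adjusted p = 0.565), -0.23 in cNSF-HA and -0.26 in fNSF-HA cells.

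NR1D2 had 1188, 1262 and 1250 normalized counts in PBS and 625, 728 and 752 in PBS + tBHP, a 1.76-fold fall (log2 change -0.82, SE 0.13, limma adjusted p = 3.58e-05). The cNSF-HA libraries had 1082, 1223 and 1213 without and 682, 738 and 650.5 with tBHP, for a log2 change of -0.76. The fNSF-HA libraries had 1379, 1338 and 1331 without and 833, 1162 and 711 with tBHP, for a log2 change of -0.61. The 9 tBHP libraries overlapped the others only through fNSF-HA + tBHP replicate 2, which at 1162 lay above cNSF-HA replicate 1. With the GC and length trend taken out, the log2 changes of NR1D2 were -0.41, -0.38 and -0.38, each past the threshold, and those of NR1D1 were 1.02, 0.78 and 0.96. The ratio of NR1D1 to NR1D2 per kb went from 0.450 without tBHP to 1.68 with it, a 3.74-fold shift. Its log2 value lay between -1.33 and -0.93 without tBHP, and between 0.51 and 1.28 in 8 of the 9 tBHP libraries, with fNSF-HA + tBHP replicate 2 at -0.23.

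The 3 period genes, which encode inhibitors of ARNTL and CLOCK, separated. With all libraries in the fit, PER3 showed the largest fall of the 10 on the scale of the deposited counts. Without fNSF-HA + tBHP replicate 3, the low-count DBP fell further in fNSF-HA cells (-1.86) than PER3 did with any library left out (-1.56 to -1.49). Once the GC and length trend was taken out, DBP fell slightly further in PBS cells (log2 change -1.15 against -1.10) and cNSF-HA cells (-1.48 against -1.45). It did not in fNSF-HA cells (-1.40 against -1.49). PER3 had 400, 433 and 422 normalized counts in PBS and 171, 189 and 189 in PBS + tBHP, 431, 441 and 437 in cNSF-HA and 173, 155 and 110 in cNSF-HA + tBHP, and 423, 430 and 433 in fNSF-HA and 156, 141 and 147 in fNSF-HA + tBHP. The groups did not come near each other. The fall was 2.28-fold in PBS cells (log2 change -1.19, SE 0.12, limma adjusted p = 3.91e-07), 3.03-fold in cNSF-HA (log2 change -1.60) and 2.88-fold in fNSF-HA cells (log2 change -1.53). The 250 bases before its upstream start, in which the D-box begins at position -177, are given because PER3 fell furthest on that scale.
PER3 upstream, chr1:7784041-7784290, plus strand: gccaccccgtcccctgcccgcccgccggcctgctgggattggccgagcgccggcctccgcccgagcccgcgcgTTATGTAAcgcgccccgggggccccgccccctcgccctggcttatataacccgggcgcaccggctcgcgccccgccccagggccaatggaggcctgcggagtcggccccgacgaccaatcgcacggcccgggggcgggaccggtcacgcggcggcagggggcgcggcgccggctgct

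PER2 fell less. Its normalized counts were 245, 189 and 223 in PBS and 192, 159 and 167 in PBS + tBHP, and these groups overlapped. In cNSF-HA cells they went from 240.5, 225 and 233 to 125, 145 and 123, and in fNSF-HA cells from 249, 232 and 253 to 143, 131 and 123, without overlap. The log2 change was -0.34 in PBS cells (SE 0.11, limma adjusted p = 0.0186), -0.83 in cNSF-HA cells (adjusted p = 1.17e-05) and -0.88 in fNSF-HA cells (adjusted p = 6.39e-06). The call in PBS cells was not stable. It was lost with TMM scaling (adjusted p = 0.0521), with quantile normalization (0.066), and without PBS replicate 1 (0.104) or replicate 3 (0.0574) or PBS + tBHP replicate 2 (0.0718) or replicate 3 (0.0515). It held with the GC and length trend taken out, where the log2 change was -0.51 (adjusted p = 0.000209).

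PER1 did not pass the test after any pre-incubation. Its normalized counts were 132, 151 and 144 in PBS and 191, 191 and 119 in PBS + tBHP. In cNSF-HA cells they were 168, 159 and 169 without and 121, 170 and 131 with tBHP. In fNSF-HA cells they were 147, 141 and 137 without and 103, 98.9 and 169 with tBHP. The log2 change was 0.19 in PBS cells (95% interval -0.21 to 0.60), -0.24 in cNSF-HA (-0.65 to 0.17) and -0.24 in fNSF-HA cells (-0.65 to 0.17). The tBHP libraries were spread on both sides of the others. Pooled over groups, the SD of PER1 between replicates was 0.36 on the log2 scale with tBHP and 0.07 without, while the median gene had 0.21 and 0.08. PER1 is the most GC-rich transcript of the 10. In cNSF-HA cells its log2 change with the GC and length trend taken out was -0.54 and passed the threshold (adjusted p = 0.00549). In fNSF-HA cells it was -0.26 with that trend taken out and did not pass (adjusted p = 0.165). On the scale of the deposited counts it was -0.49 there without fNSF-HA + tBHP replicate 3 (adjusted p = 0.0333) and -0.11 without replicate 2 of that group. In PBS cells the sign depended on that trend, with a log2 change of -0.14 once it was taken out. Relative to PER3, per kb, PER1 stood at 0.404 without and 1.03 with tBHP, and PER2 at 0.637 without and 1.08 with tBHP.

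Of the cryptochromes, the partners of the PER proteins, CRY1 fell and CRY2 did not pass the test. CRY1 had 630, 742 and 664 normalized counts in PBS and 482, 422 and 502 in PBS + tBHP, for a log2 change of -0.53 (SE 0.09, limma adjusted p = 7.95e-05). It had 652 to 660 in cNSF-HA and 444 to 526 in cNSF-HA + tBHP (log2 change -0.47), and 665 to 687 in fNSF-HA and 439 to 494 in fNSF-HA + tBHP (log2 change -0.53). The highest tBHP library, at 526, lay below the lowest library without tBHP, at 630. With the GC and length trend taken out, the log2 changes of CRY1 were -0.29, -0.24 and -0.42, each past the threshold.

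CRY2 had 359, 385 and 393 normalized counts in PBS and 369, 388 and 398 in PBS + tBHP. It lay between 399 and 409.5 in cNSF-HA, between 351 and 400.5 in cNSF-HA + tBHP, between 339 and 416 in fNSF-HA and between 336 and 374 in fNSF-HA + tBHP. The log2 changes were 0.02 in PBS cells (95% interval -0.16 to 0.21), -0.12 in cNSF-HA (-0.30 to 0.07) and -0.07 in fNSF-HA cells (-0.25 to 0.12). These intervals hold for the scale of the deposited counts. With the GC and length trend taken out, CRY2 was lower in PBS cells (log2 change -0.22, adjusted p = 0.0404) and in cNSF-HA cells (-0.34, adjusted p = 0.00311).

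DBP, the output factor, was close to the limit of detection, with 3 to 23 reads in a library. It had 14.5, 17.7 and 19.9 normalized counts in PBS and 7.9, 9.8 and 9.8 in PBS + tBHP, 18.1, 22.5 and 15.5 in cNSF-HA and 8.4, 6.1 and 8.1 in cNSF-HA + tBHP, and 19.6, 15.8 and 10.2 in fNSF-HA and 3.5, 3.2 and 11.4 in fNSF-HA + tBHP. The groups did not overlap in PBS and cNSF-HA cells and did in fNSF-HA cells. The log2 change was -0.84 in PBS cells (SE 0.37, limma adjusted p = 0.0663), -1.20 in cNSF-HA (adjusted p = 0.012) and -1.35 in fNSF-HA cells (adjusted p = 0.007). The first did not pass and the other two did, but no difference between the 3 responses passed the test. The call in cNSF-HA cells was lost without cNSF-HA replicate 2 (adjusted p = 0.0518) and that in fNSF-HA cells with only the libraries of the 2 groups in the fit (0.0754). The call was gained in PBS cells with a pseudocount of 5 (0.046), with only the libraries of the compared groups (0.0494), without fNSF-HA + tBHP replicate 3 (0.0259) and with the GC and length trend taken out (0.009). DBP shares 661 exon bases, 10.1% of its exon length, with SPHK2 on the opposite strand, a sphingosine kinase gene with a mean of 405 normalized counts over all libraries. SPHK2 had log2 changes of 0.56 (adjusted p = 0.0273), 0.50 (adjusted p = 0.0489) and 0.23 in the 3 responses, and the call in PBS cells was lost without any 1 of the PBS libraries (0.0506 to 0.0699), without PBS + tBHP replicate 1 (0.161) and with the GC and length trend taken out (0.0555). PER3 shares 868 bases, 10.7% of its exon length, with UTS2, which had a mean of 0.626. CLOCK shares 76 bases with TMEM165, whose log2 change in PBS cells was -0.33 (adjusted p = 0.0048), or -0.14 with that trend taken out (0.139).

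**Figure D2:**
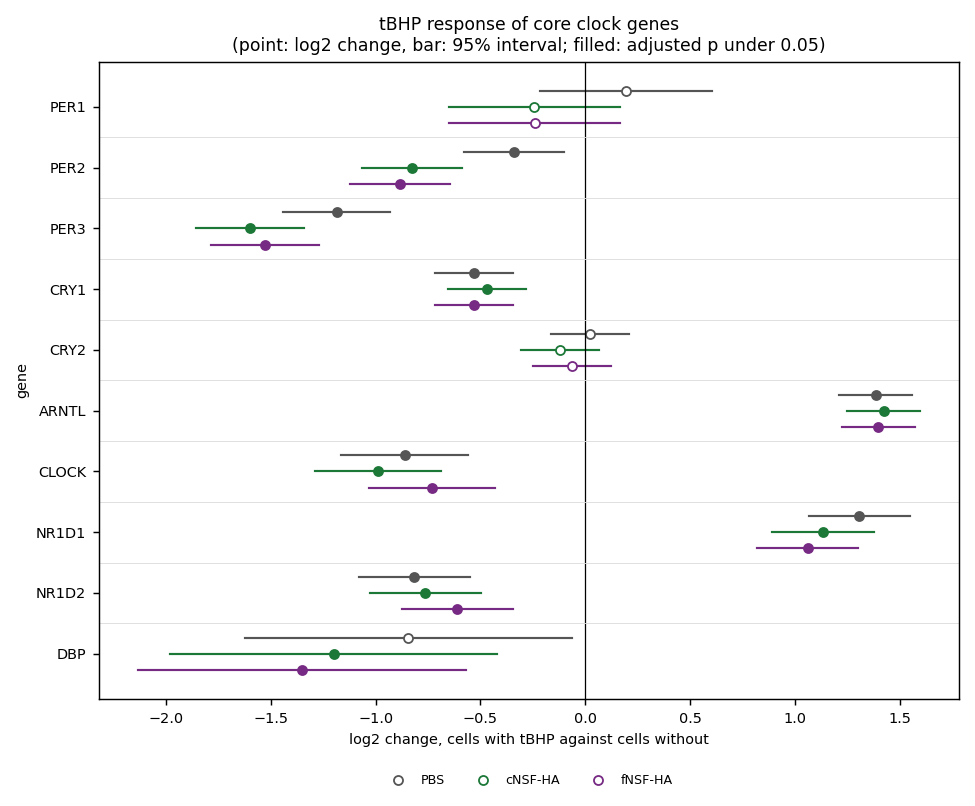
Log2 change of each clock gene between cells with and without tBHP (horizontal axis) after PBS, cNSF-HA and fNSF-HA. Points are limma estimates, bars 95% intervals, and filled points have an adjusted p under 0.05. ARNTL and NR1D1 lie to the right, from 1.06 to 1.42, and PER3 furthest to the left, from -1.60 to -1.19.

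The order of the genes by level changed with these moves. Levels were compared per kb of exon, using the merged exons of GENCODE release 29. In PBS cells NR1D2 was highest (212 normalized counts per kb), followed by CLOCK (160), CRY1 (134), NR1D1 (93.2), ARNTL (62.6), CRY2 (61.1), PER3 (51.6), PER2 (31.9), PER1 (20.4) and DBP (2.65). ARNTL and CRY2 overlapped in that order, and no other neighbours did. In PBS + tBHP cells NR1D1 (232) and ARNTL (164) were highest, and NR1D2 (121), CRY1 (92.6), CLOCK (88.6) and CRY2 (62.1) followed. PER2 (25.1), PER1 (23.8) and PER3 (22.6) then lay close together, and DBP (1.41) was last. There the ranges of CRY1 and CLOCK overlapped, as did those of PER2 and PER1 and of PER1 and PER3. CRY2 kept the sixth place and DBP the last in both.

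**Figure D3:**
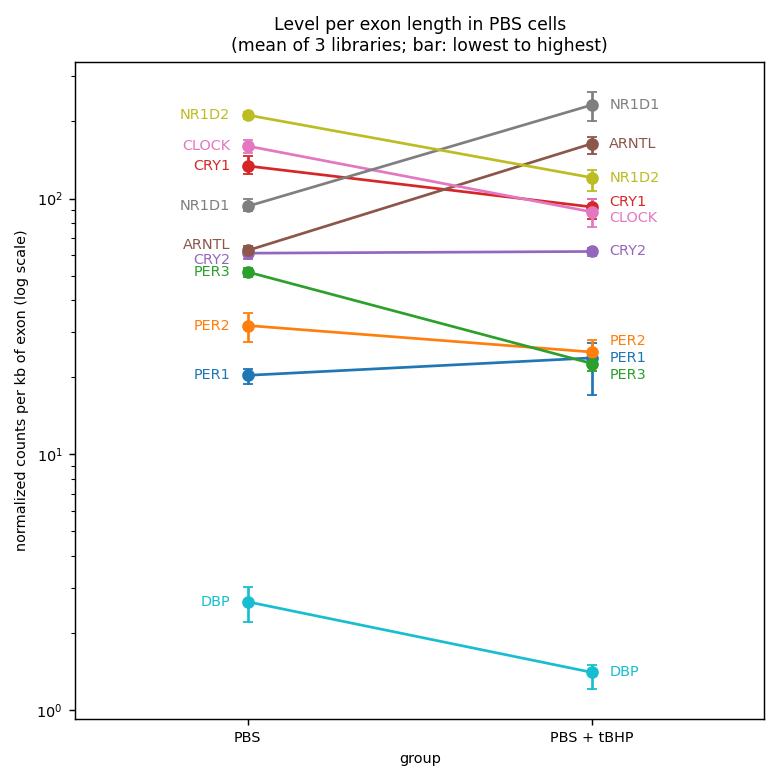
Normalized counts per kb of exon (vertical axis, log scale) in PBS and PBS + tBHP cells. Points are means of 3 libraries and bars run from the lowest to the highest. The lines of NR1D1 (93.2 to 232) and ARNTL (62.6 to 164) cross those of NR1D2 (212 to 121), CLOCK (160 to 88.6) and CRY1 (134 to 92.6).

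**Figure D4:**
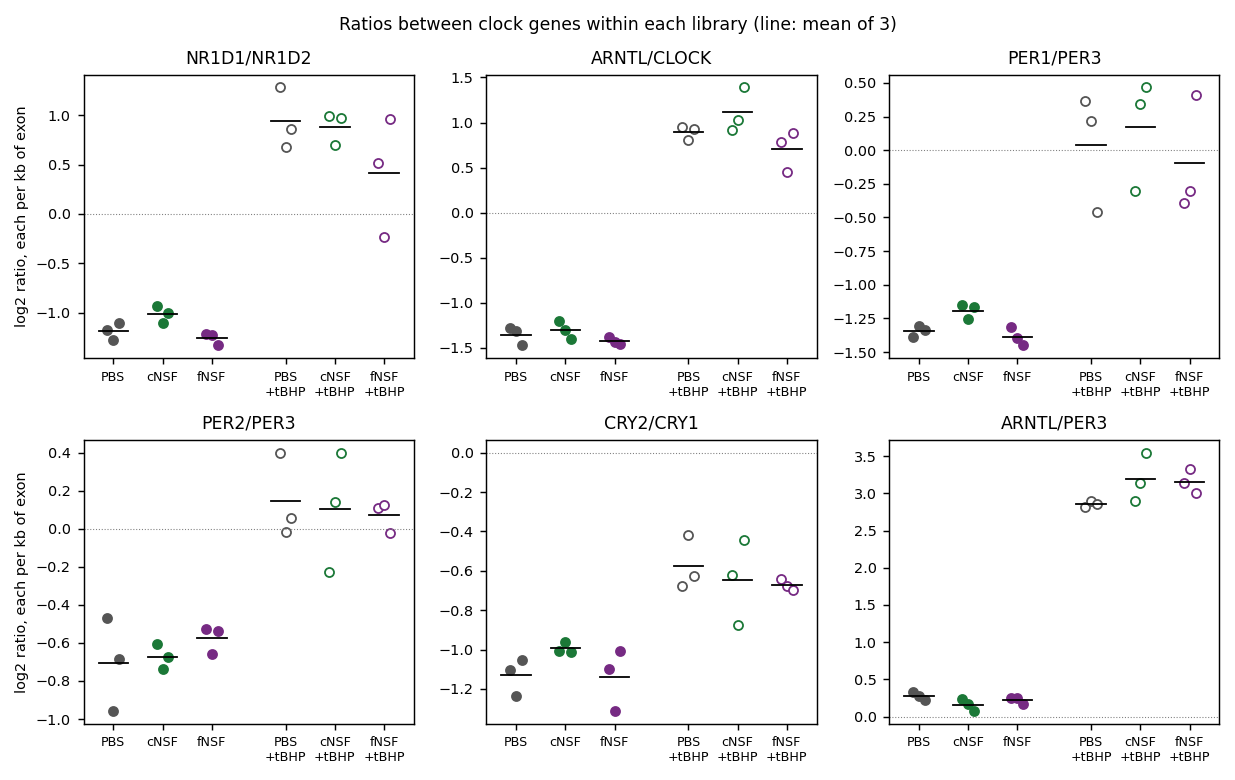
Log2 ratio between pairs of clock genes within each library, each gene per kb of exon (vertical axis), with lines at the mean of 3 libraries and the dotted line at equal levels. The pairs were picked after the values had been seen, so the plot is a description. The ratio of ARNTL to PER3 shows the widest step, from 0.08 to 0.33 without tBHP to between 2.81 and 3.55 with it.

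The pre-incubations were then compared at the same time of collection, which asks whether HA, or its length, altered the clock genes. Without tBHP, 0 of 10 clock genes passed limma's test for cNSF-HA against PBS, for fNSF-HA against PBS or for cNSF-HA against fNSF-HA, and 0% of all genes did in each. None of the 10 had an unadjusted p under 0.05 in the 3 comparisons, where 126, 109 and 206 of all genes did. The fit shares 1 spread per gene over all 18 libraries. The median gene, though, had a replicate SD of 0.08 without and 0.21 with tBHP (log2 scale). For such a gene the intervals are too wide without tBHP and too narrow with it. The lack of calls without tBHP is therefore weak evidence of no difference. The log2 differences ran from -0.11 (CLOCK) to 0.21 (PER1) for cNSF-HA against PBS, and from -0.21 (DBP) to 0.16 (PER2) for fNSF-HA against PBS. For cNSF-HA against fNSF-HA they ran from -0.20 (NR1D2) to 0.31 (DBP). That DBP value ran from 0.07 without fNSF-HA replicate 3 to 0.51 without fNSF-HA replicate 1. The 95% intervals of ARNTL, the tightest of the 10 in this shared fit, were -0.23 to 0.12, -0.19 to 0.15 and -0.21 to 0.14. edgeR and DESeq2 on the recovered reads also called 0 of the 10 in each. With only the libraries of the 2 groups in the fit, cNSF-HA against fNSF-HA gave 2 of 10, CLOCK (log2 difference -0.16, adjusted p = 0.00702) and NR1D2 (-0.20, adjusted p = 0.00475), while 7.16% of all genes passed in that fit. In the fit of all 18 libraries the smallest adjusted p of the 10 genes was 0.9999 before any trend was taken out. With the GC and length trend taken out of those 18 libraries, the CLOCK and NR1D2 differences were -0.06 and -0.12. The trend was not taken out of the fit of the 2 groups, so its part in those 2 calls was not tested.

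With tBHP, 0 of 10 genes again passed limma's test between pre-incubations, while 0% of all genes passed for cNSF-HA + tBHP against PBS + tBHP, 0.139% for fNSF-HA + tBHP against PBS + tBHP and 0% for cNSF-HA + tBHP against fNSF-HA + tBHP. That last 0% belongs to limma. DESeq2 called 9.26% of the genes to which it gave an adjusted p there, and the study, also with DESeq2, reported genes that differed. At an unadjusted p under 0.05 in limma there were 2, 4 and 2 of the 10 genes and 1183, 3102 and 4412 of all genes. PER2 was among them for both kinds of HA against PBS, with log2 differences of -0.39 for cNSF-HA (adjusted p = 0.49) and -0.38 for fNSF-HA (adjusted p = 0.113). PER3 gave -0.35 (adjusted p = 0.526) and -0.31 (adjusted p = 0.171). The first of these ran from -0.49 without cNSF-HA + tBHP replicate 1 to -0.16 without replicate 3 of that group. The comparisons of both kinds of HA with PBS share the PBS + tBHP libraries and are not independent. Of the 6 HA-treated tBHP libraries, all had fewer PER2 counts (123 to 145) than any PBS + tBHP library (159 to 192), whereas in PER3 the cNSF-HA + tBHP library at 173 overlapped PBS + tBHP. The tBHP response of PER2 was lower by 0.49 on the log2 scale in cNSF-HA than in PBS cells (95% interval of the difference -0.82 to -0.15, adjusted p = 0.999) and by 0.55 in fNSF-HA cells (-0.88 to -0.21, adjusted p = 0.667). Over all 10 genes, 0 passed the test of a difference between responses in any of the 3 pairs, as did 0% of all genes in each, with 2, 1 and 0 of the 10 at an unadjusted p under 0.05 for cNSF-HA against PBS, fNSF-HA against PBS and cNSF-HA against fNSF-HA, beside 555, 942 and 533 of all genes.

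Between the polymer lengths, the 2 genes with an unadjusted p under 0.05 were CLOCK and NR1D2. In cNSF-HA + tBHP against fNSF-HA + tBHP the log2 difference was -0.42 for CLOCK (95% interval -0.72 to -0.11) and -0.36 for NR1D2 (-0.62 to -0.09), each with an adjusted p of 0.0981. DESeq2 called both, with adjusted p of 0.0489 and 0.0485, beside 9.26% of the genes to which it gave an adjusted p, and edgeR called 0 of the 10. Leaving out fNSF-HA + tBHP replicate 2 brought the differences to -0.24 and -0.16. Leaving out replicate 3 of that group took them to -0.59 and -0.51, both past the threshold, together with PER1 (0.46, adjusted p = 0.0423) and DBP (0.96, adjusted p = 0.0322), so that 4 of 10 passed beside 40.8% of all genes in that fit. Without replicate 3 the comparison of fNSF-HA + tBHP with PBS + tBHP likewise went from 0 to 5 of 10, beside 29.4% of all genes, with CLOCK (0.35) and NR1D2 (0.49) higher and PER1 (-0.69), NR1D1 (-0.31) and DBP (-1.22) lower. The 2 that were higher have the lowest GC content of the 10, and the 3 that were lower have the highest 3 values, 59.5% to 62.6%. With all libraries kept, 0 of 10 passed in either comparison, both before and after the GC and length trend was taken out. After it, the differences between the HA lengths were -0.11 for CLOCK and -0.12 for NR1D2. The trend was not taken out of the fit without replicate 3, and the part of GC content in those calls was not tested.

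**Figure D5:**
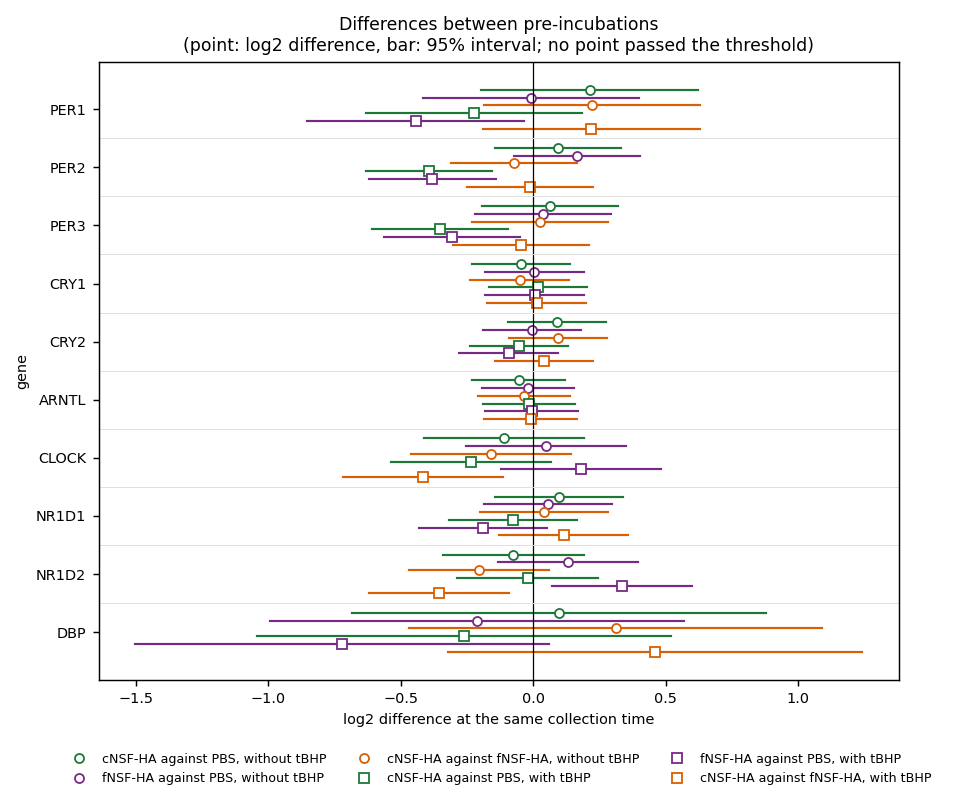
Log2 difference of each clock gene between pre-incubations (horizontal axis), without tBHP as circles and with tBHP as squares, with 95% intervals. No point passed an adjusted p of 0.05. The intervals of ARNTL, CRY1 and CRY2 all hold 0, and the squares of PER2 for both kinds of HA against PBS lie at -0.39 and -0.38.

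Other transcription factors of the clock also moved in both directions in PBS cells. Of the 12 listed, 9 were tested, and 3 rose, 4 fell and 2 did not pass (median log2 change -0.22), against 24.2% and 26.9% of all genes. NPAS2, which can stand in for CLOCK beside ARNTL, rose 1.89-fold, from 509 to 534 normalized counts in PBS to 900 to 1084 in PBS + tBHP (log2 change 0.92, limma adjusted p = 6.31e-08). ARNTL2, the paralogue of ARNTL, fell (log2 change -0.67, adjusted p = 2.61e-05). BHLHE40, a repressor that competes for E-boxes, rose by 0.61 and NFIL3, the repressor at D-boxes, by 0.34. TEF, a relative of DBP that activates through D-boxes, had a log2 change of -0.28 (adjusted p = 0.0364), CIART, a repressor of the ARNTL and CLOCK pair, -0.89, and RORA, which activates ARNTL, -0.54 (adjusted p = 0.0264). BHLHE41 did not pass (log2 change -0.22). RORA, with the GC and length trend taken out, no longer passed (-0.19, adjusted p = 0.196), and its call was also lost without PBS replicate 2 (0.0701) or replicate 3 (0.0806) or PBS + tBHP replicate 1 (0.125). The TEF call was lost with no filter (0.0671), TMM scaling (0.104), quantile normalization (0.0921) and edgeR (0.0959), and without PBS replicate 1 (0.079) or replicate 2 (0.115) or PBS + tBHP replicate 1 (0.0557) or replicate 2 (0.149), and its log2 change was -0.49 with the GC and length trend taken out. ARNTL2 was at -0.32 under that alternative and still passed. The 7 genes that passed in PBS cells did so in the same direction in all 3 pre-incubations. Many other genes kept their call in this way. Of the 3317 genes called higher in PBS cells, 1992 were called higher in all 3 pre-incubations. For genes called lower the numbers were 2447 of 3678.

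Among 12 tested genes for the turnover of PER and CRY proteins, 4 rose and 3 fell in PBS cells (median log2 change 0.06), shares near the 24.2% and 26.9% of all genes. The kinase genes CSNK1E (log2 change 0.72, limma adjusted p = 3.29e-07), CSNK1D (0.49) and CSNK1A1 (0.38), whose products mark PER proteins for breakdown, rose in all 3 pre-incubations. PRKAA2, a catalytic subunit of AMPK, which marks CRY1, fell from 62.8 to 77.8 normalized counts in PBS to between 8.71 and 31.7 in PBS + tBHP (log2 change -2.00, adjusted p = 0.000262). PRKAA1, the other catalytic subunit (-0.51), passed in PBS cells, and did not with the GC and length trend taken out or without PBS + tBHP replicate 1 (adjusted p = 0.0929). With that trend taken out CSNK1E was at 0.44, CSNK1D at 0.23, CSNK1A1 at 0.69 and PRKAA2 at -1.30, each past the threshold. Of 9 tested corepressor and NAD-linked genes, 2 rose and 4 fell (median log2 change -0.09), against 24.2% and 26.9% of all genes. SIRT1, an NAD-dependent deacetylase that binds the CLOCK complex, fell in all 3 pre-incubations (log2 change -0.77 in PBS cells, adjusted p = 0.000117). SFPQ (-0.40) and NAMPT (-0.38) fell and NONO (0.19) and DDB1 (0.18) rose. NAMPT, a target of the ARNTL and CLOCK pair that makes an NAD precursor, was at 0.06 with the GC and length trend taken out, and its call was lost without PBS replicate 3 (adjusted p = 0.0555) or PBS + tBHP replicate 1 (0.104). Under the same trend removal SIRT1 was at -0.23 and SFPQ at -0.16, both past the threshold, and DDB1 at 0.09 (adjusted p = 0.111). The DDB1 call was also lost with no filter (0.083), quantile normalization (0.181), and without PBS replicate 1 (0.0687) or replicate 3 (0.0755) or PBS + tBHP replicate 1 (0.0993), and the NONO call with quantile normalization (0.186).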

How the data were processed

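RNA was measured in 18 IMR90 libraries. Per the labels, the authors sequenced TruSeq libraries as single-end reads of 100 nt, trimmed them with Trimmomatic 0.32, aligned them to GRCh38.p7 with STAR 2.5.2b, counted reads with featureCounts (Subread 1.5.0-p3) and normalized with DESeq2. The annotation release and strand setting are not given in the sources used here. The authors deposited DESeq2-normalized counts, a signal scale of reads divided by a size factor. Whole reads came back for 100% of values (within 0.001 read). The 3 deposited columns of the authors' own test, p-values, q-values and a rank, were not used.

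The main test was limma 3.58.1 (R 4.3.3) with an intensity trend on log2(value + 1), a group term, all 18 libraries and Benjamini-Hochberg adjustment over the 13686 genes with a mean of at least 10. It was tested on simulated data first. Alternatives were pseudocounts of 0.1 and 5, no filter, a minimum of 50, TMM, quantile normalization, edgeR 4.0.16 and DESeq2 1.42.0 on recovered reads, only the compared groups, a replicate block, each library left out, and, added later, removal of a spline trend (5 df) on GC and length for the 12528 genes with both (91.5%).

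The genes, gene lists and the rule for named genes were chosen with earlier results of these data known. All 10 clock genes are described. From each other list, up to 3 rises and 3 falls with the largest log2 change in PBS cells are named, with NPAS2, ARNTL2, BHLHE40, BHLHE41, NFIL3, RORA and TEF regardless, genes whose exons overlap a member, and the 3 genes most alike to the member that rose and the member that fell most. Some listed genes are not reported here. The study describes all replicates as biological. Replicates differed by more than counting error (chi-square per degree of freedom 1.45 to 64.8). Depth was 20261103 to 26287660 reads per library, and the 95% intervals rest on the spread between replicates.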

Additional observations from a re-analysis of the deposited data

Results flagged for a closer look

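Groups of 3 libraries are too small for a test of an extreme value, so Dixon's ratio was taken in each arm of 9 libraries, which pools 3 groups. Of 20 such tests on the 10 clock genes, 3 passed the 95% critical value, and chance alone gives about 1 in 20. In NR1D2 with tBHP, fNSF-HA + tBHP replicate 2 (1162 normalized counts) lay apart with a gap of 0.613 of the range. It is the library with the lowest level of GC-rich genes, -0.63 in the fifth of highest GC content, and its part in that value was not tested. In PER2 without tBHP, PBS replicate 2 (189) lay below the others with a ratio of 0.526. In PER3 without tBHP, PBS replicate 1 (400) lay below the others with a ratio of 0.542.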

How the results depend on the processing

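The counts of clock genes called in the tBHP response stayed within 1.5 times under every alternative run. With each library left out in turn they ran from 6 to 8 of 10 in PBS, 7 to 8 in cNSF-HA and 8 to 9 in fNSF-HA cells. Between pre-incubations, counts of 0 became 2 of 10 for cNSF-HA against fNSF-HA with only the compared groups in the fit (CLOCK, adjusted p = 0.00702, and NR1D2, 0.00475), and 2 of 10 for cNSF-HA + tBHP against fNSF-HA + tBHP with DESeq2. With each library left out in turn, that last count ran from 0 to 4 and the count for fNSF-HA + tBHP against PBS + tBHP from 0 to 5, the upper values without fNSF-HA + tBHP replicate 3. The cause was not tested. With the GC and length trend removed, signs turned for PER1 (-0.14), CRY2 (-0.22), THRA (-0.21), NAMPT (0.0628) and CREB1 (0.10) in the PBS response, for CLOCK (-0.0134) and NR1D1 (0.0095) in fNSF-HA + tBHP against PBS + tBHP, and for PER1 (-0.15) and NR1D1 (-0.19) between the HA lengths with tBHP. Values near 0 also turned. CRY2 reached 0.00998 in fNSF-HA cells with quantile normalization. With each library left out in turn it ran from -0.0159 (without PBS replicate 1) to 0.0526 in PBS cells, at -0.00264 without PBS + tBHP replicate 3, and from -0.142 to 0.00591 in fNSF-HA cells. DBP in fNSF-HA against PBS ran from -0.409 to 0.0284, BHLHE41 in the PBS response from -0.463 to 0.0305, and NR1D1 between the HA lengths with tBHP from -0.0126 to 0.233. TMM scaling moved the median of all genes by 0.06 in the PBS response, with 3945 genes higher and 3248 lower where the main scale gave 3317 and 3678.

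Replicate numbers did not pair the libraries. Over 45 pairs with the same number, deviations from group means correlated between -0.12 and 0.33, with 7 pairs over 0.1. A replicate block left the counts at 7, 8 and 8 of 10 in the responses and at 0 in the other comparisons. Depth limits DBP most, with 3 to 23 reads.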

Other observations

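Lists of glucocorticoid-responsive genes and of CREB and CRTC genes, both linked to inputs of the PER genes, were counted in cells with tBHP. Of 9 tested genes that respond to glucocorticoids, 6 rose and 2 fell in PBS cells (median log2 change 0.49, beside 0.0043 for all genes), against 24.2% and 26.9% of all genes. TSC22D3, an anti-inflammatory leucine zipper factor, went from 196 to 256 normalized counts in PBS to 789 to 875 in PBS + tBHP (3.59-fold, log2 change 1.84, limma adjusted p = 1.15e-09), and KLF9 (log2 change 1.13), a factor under both glucocorticoid and clock control, and ERRFI1 (1.03), an inhibitor of EGF receptor signalling, rose as well. FKBP5 (-0.43) and SGK1 (-0.27), both textbook targets of the glucocorticoid receptor, fell, and were at -0.17 and -0.12 with the GC and length trend removed. The receptor gene NR3C1 did not pass (-0.19, adjusted p = 0.232). Of 8 tested CREB and CRTC genes, 4 rose and 1 fell (median log2 change 0.21), against the same 24.2% and 26.9% of all genes, and ATF1, CRTC3 and SIK3 did not pass. CREM (0.76), CRTC2 (0.69) and CRTC1 (0.63, or 0.27 with the GC and length trend removed) rose and CREB1 (-0.36, adjusted p = 0.0435) fell, a call that was lost in 12 of 18 fits with a library left out and with the GC and length trend removed.

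The genes most like ARNTL over the 18 libraries, by Pearson's correlation of log2 values among 10313 genes with a mean of at least 100, were GSR (0.997), CALCOCO2 (0.997) and MT-RNR2 (0.996), and those most like PER3 were SLC4A8 (0.994), MYLK (0.990) and TTF2 (0.989). The libraries form 2 arms, with and without tBHP, and the correlations run over both. The part of the step between the arms in these values was not tested, and they are a description of likeness in these libraries.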
